A study of Homo sapiens with 6 samples.

Results

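The genes described are 9 genes of MHC class I antigen presentation, taken by symbol from the gene table: the heavy-chain genes HLA-B, HLA-C, HLA-E and HLA-F, the light-chain gene B2M, the peptide transporter genes TAP1 and TAP2, and the immunoproteasome genes PSMB8 and PSMB9. All 9 were among the 46427 genes of the table, and all 9 passed the filter on low counts that left 16966 genes for testing. The cells were MDA-MB-231, an established human breast cancer cell line of epithelial origin that lacks estrogen and progesterone receptors. RNA was sequenced from 3 libraries of cells transfected with control-siRNA, labelled wild type, and from 3 libraries of cells transfected with a siRNA directed to WWTR1, the gene of TAZ, a coactivator of transcription in the Hippo pathway. All 6 libraries came from the same cell line in low-glucose medium with serum, and each group held 3 cell preparations by the study's methods. The siRNA dose and time for the sequenced cells were not given in the sources used here, and knockdown was by transient transfection of 1 siRNA product. The comparison asks which class I genes changed their mRNA when TAZ was reduced.

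MHC class I molecules display short peptides from proteins made inside the cell to cytotoxic T lymphocytes. Proteasomes cut the proteins, TAP carries the peptides into the endoplasmic reticulum, and loading factors place them on a heavy chain bound to beta-2-microglobulin before the complex moves to the cell surface. Interferons, NF-kappaB and the transactivator NLRC5 are known inducers of these genes, and tumor cells often carry less class I on their surface than normal cells do.

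In cells treated with TAZ-siRNA, mRNA of HLA-B, HLA-C, TAP1 and PSMB9 was higher and mRNA of TAP2 was lower than in cells treated with control-siRNA. The changes were small, with fold changes from 1.21 to 1.29 for the genes that rose and 0.787 for TAP2. Of the 9 genes, 4 rose, 1 fell and 4 did not pass the test at an adjusted p of 0.05 (edgeR's quasi-likelihood test, adjusted over all genes tested by Benjamini and Hochberg). Among all genes tested, 22.1% were called in either direction, 11.9% as higher and 10.2% as lower. The median log2 fold change of the 9 genes was 0.28, against -0.0054 for all genes tested. In CPM, counts scaled to a common library total after TMM normalization, the control-siRNA and TAZ-siRNA libraries did not overlap for 5 genes on the higher side and 1 on the lower side, while 39.6% of all genes tested separated in this way, 20.0% as higher and 19.6% as lower. In bulk RNA, a change in the number of cells that express a gene and a change in RNA per cell cannot be told apart.

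The targeted gene was checked first. WWTR1 (chromosome 3, 149517229 to 149724788, GRCh38) stood at 192.4, 189.7 and 190.0 CPM with control-siRNA and at 17.3, 17.0 and 15.1 CPM with TAZ-siRNA, which is 8.64% of control-siRNA. Its log2 fold change was -3.53 ± 0.061 (standard error, SE; adjusted p = 2.5e-10, edgeR), and all TAZ-siRNA libraries lay below all control-siRNA libraries. An exact two-sided permutation test gave p = 0.1, the smallest value that 3 against 3 libraries allow. The libraries held 48307548 to 71749634 counts, and 3 counts, taken as the limit of detection, corresponded to 0.0411 to 0.0618 CPM, a limit that covers counting error only. TAZ-siRNA replicate 3 stood apart from the other 2 of its group on the second principal component of all genes tested, at -33.8 against 5.89 and 19.3. VIM and CD44, markers of this basal line, and KRT18 were expressed, and ESR1 and PGR, the estrogen and progesterone receptor genes, were at means of at most 0.0573 CPM, while ERBB2, also listed as a gene low in this line, was at 46.7 ± 1.58 and 55.2 ± 8.55 CPM (SD, n = 3). The leukocyte markers PTPRC and CD3E were at 0 in every library, and the 4 leukocyte markers summed to 0.960 to 1.14 CPM with control-siRNA and 1.56 to 1.70 CPM with TAZ-siRNA. The 3 fibroblast markers summed to 20.0 to 21.8 CPM with control-siRNA and 27.4 to 28.4 CPM with TAZ-siRNA, with COL1A1 (log2 fold change 0.42) and PDGFRB (0.44) called higher and DCN at 0 in every library. The part of these markers in the class I values was not tested.

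The promoters of the genes on which the results turn are shown to place the class I genes beside the control elements for which the pathway is known. Sequences are from RefSeq (GRCh38.p14) and span 250 bases before to 50 bases after the annotated start, 5′ to 3′ on the strand of the gene. Capitals mark matches to the core motif of interferon regulatory factors (IRF core, AANNGAAA) and to the NF-kappaB consensus, on either strand, and the IRF core was added to the motifs after the promoters had been read. HLA-B lies at chr6:31357130-31357429, minus strand; HLA-C at chr6:31272043-31272342, minus strand; B2M at chr15:44711267-44711566, plus strand; TAP1 at chr6:32853655-32853954, minus strand; TAP2 at chr6:32838690-32838989, minus strand; and PSMB9, shown since it faces TAP1 across a short stretch, at chr6:32853942-32854241, plus strand.
HLA-B: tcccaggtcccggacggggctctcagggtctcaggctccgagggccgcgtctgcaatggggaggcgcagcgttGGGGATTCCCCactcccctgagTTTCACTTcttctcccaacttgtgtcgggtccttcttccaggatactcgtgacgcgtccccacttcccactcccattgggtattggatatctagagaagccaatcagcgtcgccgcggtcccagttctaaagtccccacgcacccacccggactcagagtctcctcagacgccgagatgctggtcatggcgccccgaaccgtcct
HLA-C: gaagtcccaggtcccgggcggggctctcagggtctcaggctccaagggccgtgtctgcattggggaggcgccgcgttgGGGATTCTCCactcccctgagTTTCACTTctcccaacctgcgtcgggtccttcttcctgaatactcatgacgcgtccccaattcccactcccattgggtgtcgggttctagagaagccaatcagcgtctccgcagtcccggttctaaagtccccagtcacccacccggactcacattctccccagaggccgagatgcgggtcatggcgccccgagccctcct
B2M: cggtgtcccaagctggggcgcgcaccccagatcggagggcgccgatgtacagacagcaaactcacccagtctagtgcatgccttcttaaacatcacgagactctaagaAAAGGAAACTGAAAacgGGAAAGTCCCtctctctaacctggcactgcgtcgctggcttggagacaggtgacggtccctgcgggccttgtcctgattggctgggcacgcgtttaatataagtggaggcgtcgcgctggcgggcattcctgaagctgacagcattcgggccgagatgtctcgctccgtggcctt
TAP1: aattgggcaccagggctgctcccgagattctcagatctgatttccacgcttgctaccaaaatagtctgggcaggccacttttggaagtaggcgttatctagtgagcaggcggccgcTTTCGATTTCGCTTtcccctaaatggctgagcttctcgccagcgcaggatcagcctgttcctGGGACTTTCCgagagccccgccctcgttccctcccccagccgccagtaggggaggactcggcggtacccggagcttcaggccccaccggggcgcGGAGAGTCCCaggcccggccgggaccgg
TAP2: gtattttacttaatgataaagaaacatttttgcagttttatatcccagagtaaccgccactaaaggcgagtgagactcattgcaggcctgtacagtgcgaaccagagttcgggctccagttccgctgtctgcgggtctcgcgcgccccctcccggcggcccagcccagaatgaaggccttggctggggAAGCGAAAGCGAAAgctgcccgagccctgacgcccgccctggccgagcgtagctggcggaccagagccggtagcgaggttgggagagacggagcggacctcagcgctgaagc
PSMB9: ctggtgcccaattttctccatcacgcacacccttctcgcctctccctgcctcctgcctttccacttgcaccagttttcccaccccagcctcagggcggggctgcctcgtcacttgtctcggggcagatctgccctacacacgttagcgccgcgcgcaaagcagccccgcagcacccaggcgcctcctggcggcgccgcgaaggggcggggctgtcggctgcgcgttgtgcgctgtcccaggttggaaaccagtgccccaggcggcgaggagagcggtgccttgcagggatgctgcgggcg

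Of the 9 genes, 8 had a promoter in the RefSeq table, with 10 windows in all since TAP1 and PSMB8 had more than 1 start. HLA-E was not matched. The IRF core was present in windows of 7 genes (HLA-B, HLA-C, HLA-F, B2M, TAP1, TAP2 and PSMB8) and in 22.8% of all 35116 promoters of the table. The interferon-stimulated response element (ISRE) is GAAA, any 2 bases, then GAAA, and always holds the IRF core. It was found in 5 genes (HLA-F, B2M, TAP1, TAP2 and PSMB8) and in 3.57% of all promoters. The NF-kappaB consensus was found in HLA-B, HLA-C, B2M and TAP1, and in 11.3% of all promoters. TAP2, the 1 gene of the 9 that fell, carried 2 overlapping IRF cores at positions -62 and -56 from its start. TAP1, which rose, carried 2 at -134 and -128, also overlapping. Positions are counted to the first base of the match. The gamma-activated sequence (GAS, TTCNNNGAA) was found in TAP1 and PSMB8 and in 7.66% of all promoters. Both matches lay only in window 2 of these genes, which is not shown above, as did the IRF core and ISRE of PSMB8. A gene was counted where any of its windows matched, while the shares are over single windows. The CCAAT box (CCAAT) was found in 6 genes and in 34.6% of promoters, and the half-site of the cyclic AMP response element (TGACG) in 6 genes and in 24.6%. The motif of TEAD factors, the DNA-binding partners of TAZ (GGAATG), was found in B2M at -1 and in PSMB8 at -146. The match in PSMB8 was in window 2, and 14% of all promoters held this motif. The windows of HLA-B and HLA-C were identical at 269 of 304 aligned positions (88.5%). TAP1 and PSMB9 are transcribed away from each other from starts 488 bases apart, and their windows share 13 bases. A match is a description of the reference letters, and binding was not measured.

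Before the change with TAZ-siRNA, the levels of the genes differed widely. In TPM, a unit scaled for transcript length that allows genes to be compared, the control-siRNA means were 1487 ± 32.3 for B2M (SD, n = 3), 251.4 ± 7.35 for HLA-B, 185.5 ± 3.42 for HLA-C and 122.4 ± 3.98 for HLA-E. PSMB8 followed at 74.4 ± 3.19, TAP2 at 50.3 ± 0.640, TAP1 at 29.7 ± 1.56, PSMB9 at 21.6 ± 0.523 and HLA-F at 9.50 ± 2.51 TPM. No neighbours in this order overlapped among the control-siRNA libraries. The light chain was therefore the most abundant of the 9 mRNAs, at percentile 99.4 of the genes tested by TPM, and HLA-F the least, at percentile 46.8. Of the transporter subunits, TAP2 was above TAP1, and of the immunoproteasome subunits, PSMB8 was above PSMB9.

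**Figure D1:**
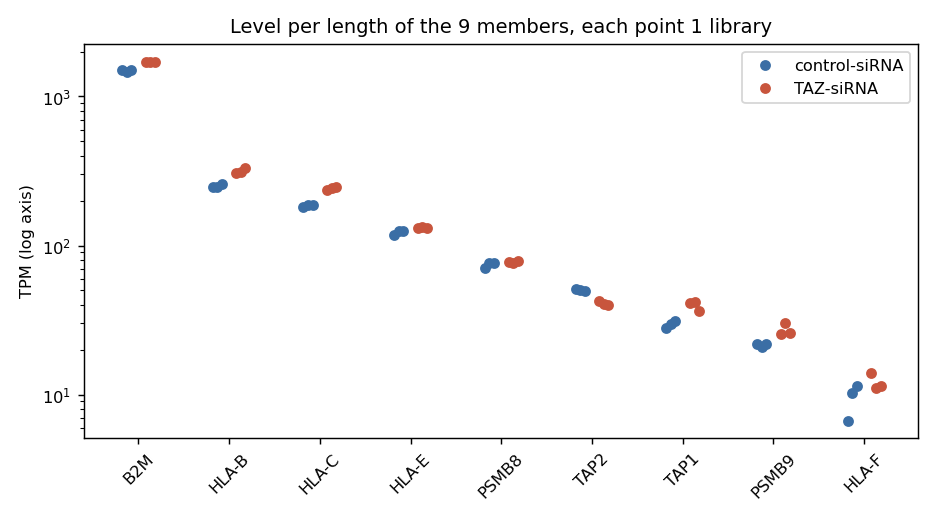
Level per length of the 9 class I genes in TPM on a log axis, ordered by the control-siRNA mean, with each point 1 library (blue, control-siRNA; red, TAZ-siRNA). The control-siRNA levels run from a mean of 1487 TPM for B2M to 9.50 TPM for HLA-F, and the 2 groups of TAP2 lie apart in the opposite direction to those of TAP1.

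HLA-B (chromosome 6, 31353875 to 31357179), a classical heavy chain that presents peptides to cytotoxic T lymphocytes, was at 171.5, 173.6 and 188.8 CPM in control-siRNA replicates 1 to 3 and at 201.8, 208.4 and 238.3 CPM in TAZ-siRNA replicates 1 to 3. All TAZ-siRNA libraries were above all control-siRNA libraries. The log2 fold change was 0.28 ± 0.069 (SE), a fold change of 1.21 (adjusted p = 0.016, edgeR). The call was lost without control-siRNA replicate 1 (log2 fold change 0.26, adjusted p = 0.077) and without control-siRNA replicate 2 (0.26, adjusted p = 0.084), and was kept without each of the other 4 libraries.

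HLA-C (chromosome 6, 31268749 to 31272092), also a classical heavy chain and a ligand of the killer-cell immunoglobulin-like receptors, was at 127.3, 130.6 and 137.6 CPM with control-siRNA and at 155.6, 162.4 and 177.8 CPM with TAZ-siRNA. Again the groups did not overlap, and the highest library of both HLA-B and HLA-C was TAZ-siRNA replicate 3. HLA-C rose by a log2 fold change of 0.33 ± 0.059 (adjusted p = 0.0035, edgeR). The call was made under all 16 alternatives tried, with log2 fold changes from 0.27 to 0.38.

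HLA-E (chromosome 6, 30489508 to 30494194), a nonclassical heavy chain that presents peptides from the leaders of other class I chains to natural killer cells, was at 137.5, 146.9 and 151.8 CPM with control-siRNA and at 146.4, 148.2 and 157.7 CPM with TAZ-siRNA. The groups overlapped, and HLA-E did not pass the test (log2 fold change 0.05, approximate interval -0.05 to 0.16, adjusted p = 0.53, edgeR). In TPM, which carried a median shift of 0.046 on the log2 scale over all genes tested, HLA-E was at 117.8, 124.8 and 124.7 with control-siRNA and at 130.9, 133.0 and 131.3 with TAZ-siRNA, without overlap. The interval of HLA-E in the edgeR fit ended below the fitted values of HLA-B and HLA-C. It overlapped the interval of HLA-B (0.14 to 0.42) but not that of HLA-C (0.21 to 0.44). The difference in change between these genes was not tested.

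HLA-F (chromosome 6, 29723340 to 29740355), a nonclassical heavy chain that reaches the surface in part without peptide, was weakly expressed, with 289 to 546 counts per library. Its CPM values were 4.33, 5.58 and 7.15 with control-siRNA and 7.49, 6.61 and 6.89 with TAZ-siRNA. The spread among the control-siRNA libraries was the widest of the 9 genes relative to the mean, and control-siRNA replicate 3 lay within the TAZ-siRNA range. The log2 fold change of HLA-F lay between those of HLA-B and HLA-C. HLA-F did not pass the test (log2 fold change 0.31 ± 0.16, approximate interval -0.00 to 0.62, adjusted p = 0.19, edgeR). Without control-siRNA replicate 3 it was called (0.50, adjusted p = 0.044), and without control-siRNA replicate 1 the value was 0.15 (adjusted p = 0.51). The antisense gene HLA-F-AS1 overlaps HLA-F, held 90 to 154 counts and was not called (0.39, adjusted p = 0.11). The use of strand in the counting was not stated, so reads of HLA-F and its antisense partner may not be separate.

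B2M (chromosome 15, 44711492 to 44718145) encodes beta-2-microglobulin, the light chain with which peptide-loaded class I heavy chains pair, and it is the 1 gene of the 9 outside chromosome 6. It was at 656.4, 643.7 and 693.8 CPM with control-siRNA and at 699.4, 708.3 and 758.0 CPM with TAZ-siRNA. The groups were apart, but control-siRNA replicate 3 and TAZ-siRNA replicate 1 lay close together. The log2 fold change of 0.12 ± 0.06 did not pass the test (approximate interval -0.00 to 0.24, adjusted p = 0.19, edgeR). With a correction for GC content and gene length, the value was 0.25 and was called (adjusted p = 0.0017). In TPM, B2M was at 1512, 1450 and 1498 with control-siRNA and at 1698, 1706 and 1705 with TAZ-siRNA. These TPM values include the median shift of 0.046 toward TAZ-siRNA, on the log2 scale, over all genes tested.

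**Figure D2:**
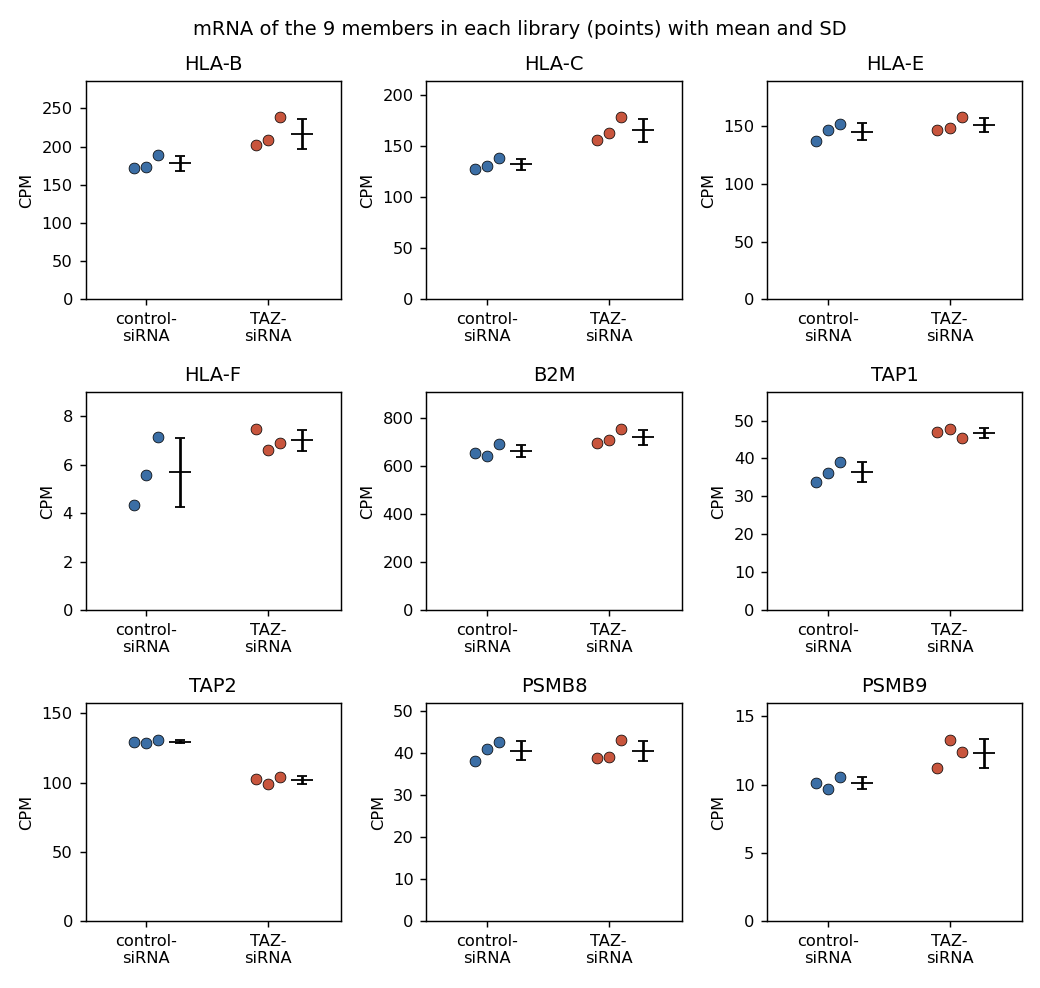
CPM of the 9 genes in each library (points, in replicate order 1 to 3 from the left) with the mean (horizontal line) and SD (error bar) beside them, for control-siRNA (blue) and TAZ-siRNA (red), each axis starting at 0. HLA-B, HLA-C, B2M, TAP1 and PSMB9 are higher in all TAZ-siRNA libraries, TAP2 is lower in all of them, and HLA-E, HLA-F and PSMB8 overlap.

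The heavy chains share long stretches of sequence, so reads can be divided between them, and their sum was also described. The sum of the 5 heavy-chain genes HLA-B, HLA-C, HLA-E, HLA-F and HLA-G was 443.0, 456.6 and 485.3 CPM with control-siRNA and 511.2, 525.6 and 580.6 CPM with TAZ-siRNA. The sum was thus higher in each TAZ-siRNA library than in each control-siRNA library, by 16.8% in the mean of CPM and by 23.0% in TPM, and no test was made. HLA-G contributed 157 counts in control-siRNA replicate 1 and 0 in the other 5 libraries. The pseudogene HLA-H, which resembles the classical heavy chains closely, was called higher by a similar log2 fold change (0.32 ± 0.058, adjusted p = 0.0036, edgeR). The pseudogenes HLA-K (0.03, adjusted p = 0.87) and HLA-L (0.06, adjusted p = 0.79) were not called. The HLA alleles of the cell line itself were not analysed here, and counts rest on mapping to the reference alleles.

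The classical heavy chains were also set against the light chain. The ratio of HLA-B to B2M in TPM was 0.163, 0.171 and 0.173 with control-siRNA and 0.180, 0.183 and 0.195 with TAZ-siRNA. The ratio of HLA-C to B2M in TPM was 0.125 ± 0.00417 with control-siRNA and 0.142 ± 0.00336 with TAZ-siRNA (SD, n = 3). Neither ratio overlapped between the groups, although even the higher values left B2M mRNA well above each heavy chain. These ratios were chosen after the values were seen and carry no test.

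TAP1 and TAP2 encode both subunits of the transporter that moves cytosolic peptides into the endoplasmic reticulum, and they changed in opposite directions. TAP1 (chromosome 6, 32845209 to 32853704) was at 33.9, 36.3 and 39.0 CPM with control-siRNA and at 46.9, 47.9 and 45.4 CPM with TAZ-siRNA. Its lowest TAZ-siRNA library stood above its highest control-siRNA library. TAP1 rose by a log2 fold change of 0.36 ± 0.063, a fold change of 1.29 (adjusted p = 0.0029, edgeR). TAP2 (chromosome 6, 32821833 to 32838770) was at 129.6, 128.5 and 131.1 CPM with control-siRNA and at 102.9, 99.1 and 104.3 CPM with TAZ-siRNA. The spread within each group was narrow and the groups were far apart. TAP2 fell by 0.34 on the log2 scale (SE 0.044, adjusted p = 6.0e-04, edgeR), the smallest adjusted p among the 9 genes.

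Both calls were made under all 16 alternatives, with log2 fold changes from 0.31 to 0.41 for TAP1 and from -0.44 to -0.32 for TAP2. The ratio of TAP1 to TAP2 in TPM was 0.551, 0.593 and 0.627 with control-siRNA and 0.957, 1.02 and 0.903 with TAZ-siRNA. With control-siRNA, TAP1 mRNA was thus well below TAP2 mRNA in each library, and with TAZ-siRNA both were at nearly the same level per length. The ratio differed by 0.70 on the log2 scale, a description with no test since it was chosen after the values were seen. The main transcript held 94.7% to 99.9% of the TAP1 counts and 99.0% to 99.6% of the TAP2 counts over the 6 libraries, with no visible switch between annotated transcripts. The antisense gene PSMB8-AS1 overlaps TAP1 and PSMB8, held 53 to 99 counts and was not called (log2 fold change 0.36, adjusted p = 0.17).

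**Figure D3:**
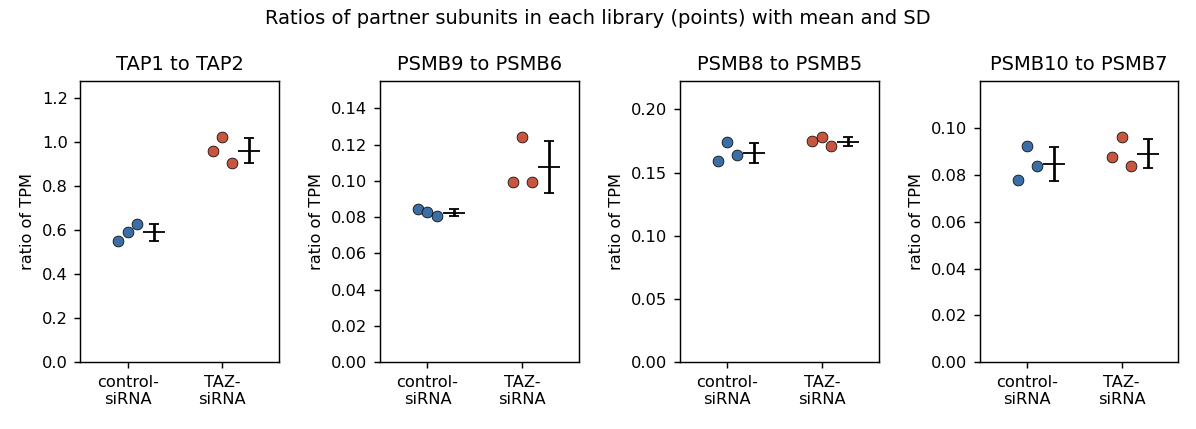
Ratios of TPM in each library (points, in replicate order from the left) with the mean and SD, for TAP1 to TAP2 and for each inducible proteasome subunit to the standard subunit it replaces. The TAP1 to TAP2 ratio lies between 0.551 and 0.627 with control-siRNA and between 0.903 and 1.02 with TAZ-siRNA, the PSMB9 to PSMB6 ratio is also apart, and the other 2 ratios overlap.

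PSMB8 and PSMB9 encode catalytic subunits of the immunoproteasome, which take the place of standard subunits and alter the peptides that are cut. PSMB9 (chromosome 6, 32854192 to 32859851) was at 10.1, 9.72 and 10.6 CPM with control-siRNA and at 11.2, 13.3 and 12.4 CPM with TAZ-siRNA. The groups did not overlap, and PSMB9 rose by a log2 fold change of 0.28 ± 0.086 (adjusted p = 0.041, edgeR), close to the threshold. The call was lost without control-siRNA replicate 1 (0.28, adjusted p = 0.11), replicate 2 (0.25, adjusted p = 0.15) or replicate 3 (0.31, adjusted p = 0.072), and without TAZ-siRNA replicate 2 (0.22, adjusted p = 0.12).

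PSMB8 (chromosome 6, 32840717 to 32844679), which lies between TAP2 and TAP1, was at 38.1, 40.8 and 42.5 CPM with control-siRNA and at 38.8, 39.1 and 43.1 CPM with TAZ-siRNA. The groups overlapped almost fully, and PSMB8 did not pass the test (log2 fold change -0.0037, approximate interval -0.13 to 0.13, adjusted p = 0.97, edgeR). Its sign changed under several alternatives, with values from -0.05 to 0.07. The main transcript of PSMB8 held 64.1% to 73.5% of its counts, with overlapping groups.

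PSMB9 takes the place of PSMB6, PSMB8 that of PSMB5, and PSMB10 that of PSMB7. The ratio of PSMB9 to PSMB6 was 0.104, 0.102 and 0.0993 in CPM with control-siRNA and 0.123, 0.152 and 0.122 with TAZ-siRNA. This ratio was 0.37 higher on the log2 scale (exact two-sided permutation p = 0.1, the smallest possible, and 0.3 after Benjamini-Hochberg adjustment over 3 ratios). The ratio of PSMB8 to PSMB5 differed by 0.07 (exact permutation p = 0.2, adjusted 0.3) and that of PSMB10 to PSMB7 by 0.08 (exact permutation p = 0.4, adjusted 0.4). None of the 3 other inducible genes was called by edgeR (PSMB10 -0.09, PSME1 0.05 and PSME2 -0.05 on the log2 scale, adjusted p from 0.54 to 0.61, and 0 at an unadjusted p under 0.05). PSME1 and PSME2 encode subunits of the activator that opens the proteasome. DESeq2 called none of these 3 genes either, while PSME1 was called with GC content and length corrected (0.13, adjusted p = 0.025). The 3 standard counterparts were not called, with log2 fold changes from -0.16 to -0.08.

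Among 7 genes of peptide loading and trimming, 2 rose and 5 were not called, where 22.1% of all genes tested were called. TAPBP encodes tapasin, which bridges TAP and the empty heavy chain, and rose by a log2 fold change of 0.35 ± 0.072 (128.9 ± 5.66 against 164.4 ± 17.0 CPM, SD, n = 3; adjusted p = 0.0069, edgeR). ERAP1, the aminopeptidase that trims peptides in the endoplasmic reticulum, rose by 0.20 ± 0.049 (59.8 ± 1.42 against 68.6 ± 2.14 CPM; adjusted p = 0.017, edgeR). TAPBP was called under all 16 alternatives. ERAP1 lost its call without any 1 of the control-siRNA libraries or without TAZ-siRNA replicate 1 (log2 fold change 0.18 to 0.22, adjusted p from 0.052 to 0.076). The general chaperones CALR (-0.07), CANX (-0.10) and PDIA3 (0.07) did not pass, nor did ERAP2, the partner of ERAP1 (0.24, adjusted p = 0.11). Without TAZ-siRNA replicate 3, CALR (-0.16, adjusted p = 0.029), CANX (-0.16, adjusted p = 0.034) and ERAP2 (0.34, adjusted p = 0.0051) were called. The median of the 7 genes was 0.07.

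Of 7 class I and class I-like genes outside the list of 9, chosen with earlier results of these data known, 4 were tested. Where 22.1% of all genes tested were called, all 4 of these class I-like genes were. These were MR1, which presents microbial metabolites (log2 fold change 0.33, adjusted p = 0.0091), HFE, a regulator of iron uptake (0.36, adjusted p = 0.01), and MICA (0.22, adjusted p = 0.021) and MICB (-0.19, adjusted p = 0.029), stress ligands of an activating receptor on natural killer cells that bind neither peptide nor B2M (edgeR). MICA and MICB thus moved in opposite directions, at 34.5 ± 0.853 against 40.0 ± 1.79 CPM and at 40.1 ± 0.816 against 35.2 ± 0.959 CPM (SD, n = 3). MICA lost its call without any 1 of the control-siRNA libraries or without TAZ-siRNA replicate 2 (0.19 to 0.23, adjusted p from 0.061 to 0.09), and HFE without control-siRNA replicate 2 (0.30, adjusted p = 0.058). MICB was called only without TAZ-siRNA replicate 3 among the fits that left out 1 library, and the other 5 gave adjusted p from 0.05 to 0.1. MR1 lost its call with GC content and length corrected (0.23, adjusted p = 0.063) and with limma on log2(FPKM + 1) (0.21, adjusted p = 0.054) and log2(FPKM + 0.1) (0.32, adjusted p = 0.062). MICB was not called in either limma fit (adjusted p = 0.07 in both).

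**Figure D4:**
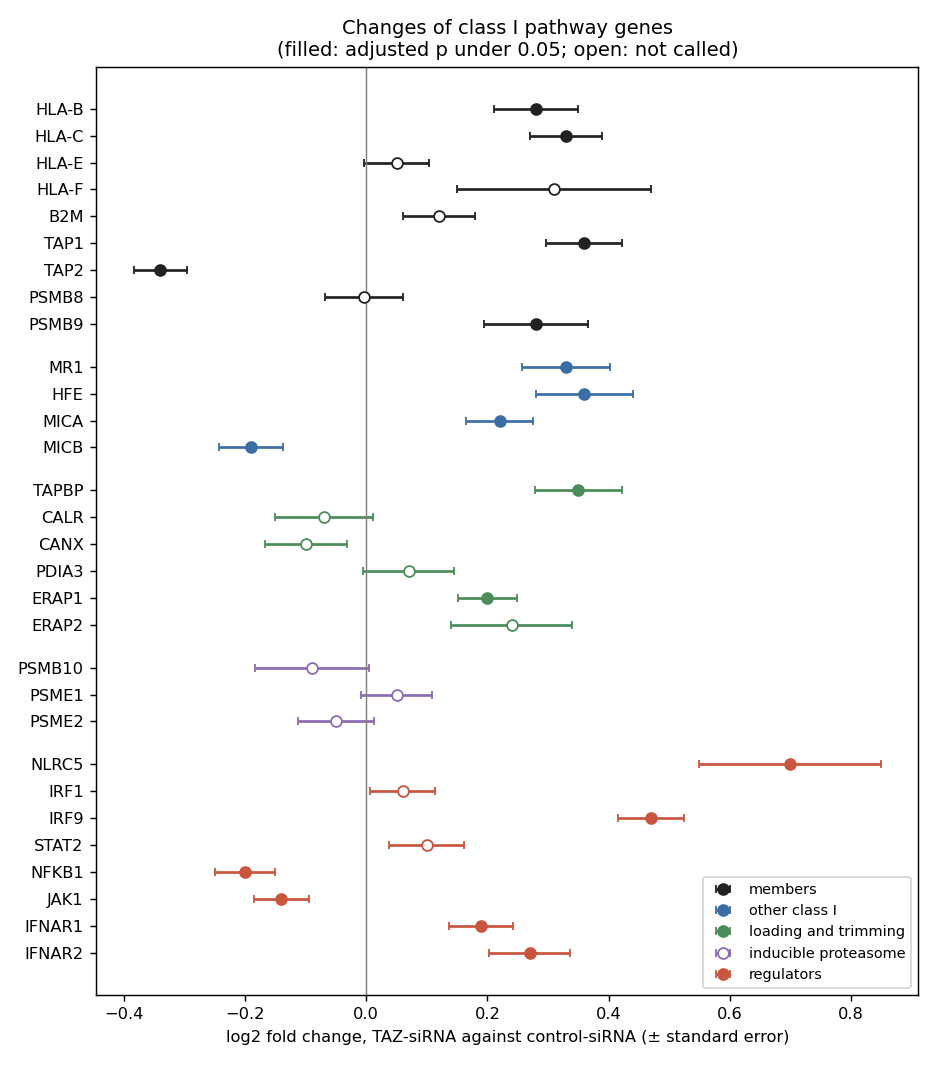
Log2 fold change (TAZ-siRNA against control-siRNA) with its SE for the 9 class I genes and for pathway genes. Filled points mark an adjusted p under 0.05 by edgeR. The pathway genes are other class I genes, loading and trimming genes, inducible proteasome genes and regulators. All called regulators are drawn, but of the 10 not called only IRF1 and STAT2. TAPBPL, a loading gene not called, is also left out. TAP1 (0.36) and TAP2 (-0.34) lie on opposite sides of 0, HLA-B, HLA-C and HLA-F lie between 0.28 and 0.33, and NLRC5 (0.70) and IRF9 (0.47) lie farthest to the right.

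Of 16 regulators of the pathway, 4 rose, 2 fell and 10 were not called, with a median log2 fold change of 0.06. Among all genes tested, 11.9% were called as higher and 10.2% as lower. NLRC5, the transactivator that acts on class I promoters, was at 5.88, 5.88 and 5.48 CPM with control-siRNA and at 9.94, 11.2 and 6.89 CPM with TAZ-siRNA. All TAZ-siRNA libraries were higher, but replicate 3 was much closer to control-siRNA than the other 2. The log2 fold change was 0.70 ± 0.15 (adjusted p = 0.01, edgeR), and the call was lost without TAZ-siRNA replicate 1 (0.65, adjusted p = 0.053) and with limma on log2(FPKM + 1), at 0.27 (adjusted p = 0.19), and on log2(FPKM + 0.1), at 0.45 (adjusted p = 0.2). In TAZ-siRNA replicate 3, where NLRC5 was lowest of its group, HLA-B and HLA-C were highest of their group. So were HLA-E, B2M and PSMB8, which were not called, and TAP2, which fell. This library also stood apart from the others of its group on the second principal component. TAP1, TAPBP and ERAP1 were lowest of their group in that library. A link between NLRC5 and these genes was not tested.

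IRF9, the DNA-binding part of the complex that type I interferon activates, rose by 0.47 ± 0.054 (38.8 ± 1.34 against 53.9 ± 1.62 CPM; adjusted p = 3.3e-04, edgeR) and was called under all 16 alternatives. Its partner STAT2 (0.10, adjusted p = 0.28) was not called, nor was IRF1, an activator of TAP1 and PSMB9 transcription (0.06, adjusted p = 0.46). The type I interferon receptor genes IFNAR1 (0.19, adjusted p = 0.027) and IFNAR2 (0.27, adjusted p = 0.016) rose, and NFKB1 (-0.20, adjusted p = 0.015), the gene of an NF-kappaB subunit, and JAK1 (-0.14, adjusted p = 0.049), a kinase of interferon receptors, fell. Among the fits that left out 1 library, IFNAR1 (adjusted p from 0.063 to 0.12) and JAK1 (from 0.089 to 0.17) lost their calls in all but the fit without TAZ-siRNA replicate 3. IFNAR2 lost its call without control-siRNA replicates 1 or 2 or TAZ-siRNA replicate 1 (adjusted p from 0.058 to 0.081), and NFKB1 without control-siRNA replicates 1 or 3 or TAZ-siRNA replicates 1 or 2 (from 0.053 to 0.073). With limma on FPKM, neither receptor gene nor JAK1 was called. IFNAR1 was also lost with GC content and length corrected, at 0.11 (adjusted p = 0.05, and 0.053 with the replicate block added), and JAK1 with RLE factors (adjusted p = 0.052) and with no filter (adjusted p = 0.086).

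MHC class II presents peptides from outside the cell, and its genes were weakly expressed or not detected. Of 9 class II genes, 5 were tested and none was called by edgeR (0 at an unadjusted p under 0.05), with log2 fold changes from -0.14 to 0.68. These 5 genes held 7 to 211 counts per library and had SE from 0.17 to 0.41, so a change of the size seen in class I was not detectable at this depth. HLA-DRA and HLA-DRB1 were at 0 in every library. CIITA, the transactivator of class II (0.68, adjusted p = 0.21), and CD74, the invariant chain, which was too low to test, were higher in CPM in all TAZ-siRNA libraries than in all control-siRNA libraries, at 10 to 19 and 1 to 10 counts per library. Of the genes of chromosome 6 between HLA-F and TAPBP (29723340 to 33314387) that are in none of the gene lists, 111 of 226 were tested. Listed genes of this region are thus not counted, among them MICA and TAPBP, called higher, and MICB, called lower. Of the genes counted, 11 rose and 9 fell, with a median log2 fold change of 0.03. This is a share of 18.0% called, against 22.1% of all genes tested, which include the listed genes. The region lies around 8 of the 9 class I genes, and 9.91% of its tested genes outside the lists rose, against 11.9% of all genes tested. The difference between these shares was not tested.

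The mean profile of the 9 genes, as the mean of their z scores of log2 CPM, was -0.99, -0.53 and 0.18 with control-siRNA and 0.09, 0.30 and 0.95 with TAZ-siRNA. The groups overlapped, since control-siRNA replicate 3 exceeded TAZ-siRNA replicate 1. TAP2, which fell, entered this mean with its own sign, opposite to the genes that rose. The profile is therefore mixed in direction, and its overlap without TAP2 was not examined. Outside the lists, 9893 genes had a mean CPM of 10 or more, and those closest to this profile by Pearson correlation over the 6 libraries were CD151 (r = 0.991), STC1 (0.990), OS9 (0.985), PLEK2 (0.985) and MAPKAPK2 (0.983). The 6 points share the 2 treatment groups and the library scaling, and the ranking is a description. Of these 5 genes, STC1 was called by edgeR (0.24, adjusted p = 0.04), and the other 4 had log2 fold changes from 0.03 to 0.17 and were not called.

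**Figure D5:**
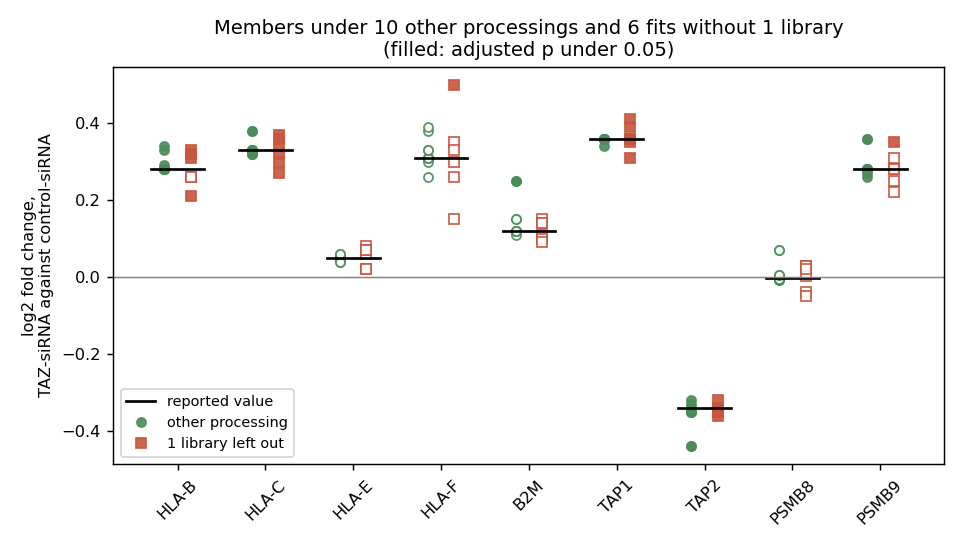
Log2 fold change of the 9 genes as reported (black lines), under 10 other processings (green circles) and in 6 fits that each left out 1 library (red squares), with filled symbols for an adjusted p under 0.05. HLA-C, TAP1 and TAP2 are filled throughout, PSMB9 is filled in 2 of 6 fits without 1 library, and B2M is filled only where GC content and length were corrected.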

How the data were processed

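RNA of 3 control-siRNA and 3 TAZ-siRNA libraries of MDA-MB-231 cells was sequenced from a stranded mRNA kit. By the study's methods, reads were trimmed by the authors and aligned with HISAT2 to GRCh38, and StringTie gave values for RefSeq genes and transcripts. Versions were not given in the sources used here, nor was the use of strand in counting, and the submitters' processing notes also name Bowtie 0.12.2 and the mouse build mm8. The deposited estimated count of each gene was a whole number, so none was rounded. The deposited FPKM and TPM values had been adjusted upstream for length and depth.

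Counts were normalized by TMM and tested with edgeR 4.0.16 in R 4.3.3 (filterByExpr with a minimum count of 10, robust quasi-likelihood fit, Benjamini-Hochberg adjustment over 16966 genes, threshold 0.05). CPM used TMM-adjusted library sizes, and standard errors were derived from the log2 fold change and the F statistic. Approximate intervals span 2 standard errors on each side of the log2 fold change and may be too narrow for 3 libraries per group. The biological coefficient of variation was 8.04%, and libraries of 1 group differed by more than sampling noise (chi-square per degree of freedom 6.38 to 38.2). Depth was 48307548 to 71749634 counts. Alternatives were DESeq2 1.42.0, upper-quartile and RLE factors, no filter and at least 10 counts in every library, the replicate number as a block, an offset from a spline (5 degrees of freedom) on GC content and length, which 89.1% of the genes tested had, FPKM tested by limma 3.58.1 after adding 1 or 0.1 and taking log2, and each library left out in turn. The scripts were tested on simulated data. Replicates were numbered 1 to 3 by the library names, while the sample titles number the same libraries 3 to 5. The labels name no batch, and p-values measure the spread between 3 cell preparations per group. The members and lists were chosen with earlier results of these data known. Genes named were all 9 members, WWTR1, pathway genes of the lists that were called, the 5 closest profiles and, chosen after their values were seen, some pathway genes that were not called and the pseudogenes. Some listed genes are not reported here. Promoters were read from RefSeq (GRCh38.p14).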

Additional observations from a re-analysis of the deposited data

How the results depend on the processing

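Of the 9 class I genes, 5 were called as reported, 5 or 6 under the 10 other processings, and 3 to 5 with 1 library left out, 3 being without control-siRNA replicate 1 or control-siRNA replicate 2. Over all genes tested, 3749 were called, 1720 at the stricter threshold of 0.01. With 1 library left out, the count ran from 1937, with control-siRNA replicate 2 removed, to 5928, with TAZ-siRNA replicate 3 removed. Counts were also low without control-siRNA replicate 1 (2262), control-siRNA replicate 3 (2115) and TAZ-siRNA replicate 1 (2046). The replicate number as a block gave 5122 calls, and 5 of the 9 class I genes. Over all genes tested, the deviations of same-numbered libraries from their group means had correlations of -0.0173, 0.00865 and 0.0698. Differently numbered libraries ran from -0.0951 to 0.1, so these values cannot decide whether same-numbered libraries were prepared together. With the block, ERAP2 was called (0.24, adjusted p = 0.035) and no other call changed among the 9 class I genes, WWTR1 and the pathway genes refitted under the alternatives. Among these refitted genes, the signs that changed were of genes not called as reported. PSMB8 was at 0.07 with GC content and length corrected, with and without the replicate block, at 0.0062 and 0.0064 with limma on FPKM, and at -0.05 to 0.03 with 1 library left out. With that correction PSMB10 was at 0.0083 (0.01 with the block) and PSME2 at 0.06 (0.06 with the block). With 1 library left out, CALR ran from -0.16 to 0.00031 and PDIA3 from -0.01 to 0.13. By TPM, the main transcript held 97.4% of B2M, 98.7% of TAP2 and 72.0% of PSMB8 with control-siRNA, against 94.6%, 99.4% and 68.5% of counts. The causes were not tested. Depth limits genes with few counts, and the HLA genes share near-identical sequence. Class II genes, pseudogenes, antisense genes, markers and the closest profiles were not refitted.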
